A study of Homo sapiens with 16 samples.

Results

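Interferon-stimulated genes are transcribed when a cell senses interferon, and 8 of them were followed here through all 16 libraries of an RNA sequencing study of HepG2. They were taken as the listed symbols IFI27, IFI6, IFIT1, IFITM1, IFITM2, IFITM3, ISG15 and IRF9, and all 8 were among the 16558 genes of the table. HepG2 is an established line from a human liver tumour, and it still makes many hepatocyte proteins. It had been prime edited at PNPLA3, a lipid droplet protein gene, at the codon of I148M, a common variant associated with fatty liver disease. Edited lines, called clones here, were homozygous for G, the I148M allele (GG, 3 clones numbered 1, 2 and 6), heterozygous (GC, 3 clones numbered 2, 3 and 4) or homozygous for C (CC, 2 clones numbered 1 and 3). From every clone there was 1 control library without palmitic acid and 1 after exposure to this saturated fatty acid at 250 µM for 48 h. The labels of single treated libraries run from 48 to 55 h, while the protocol gives 48 h for all. The sources used here give neither the vehicle of the controls nor the genotype before editing. No label says how the numbered lines were derived, and they were taken as separate clones. Where each clone is compared with itself (clone as block), p-values set a palmitic acid change against how it varies between clones. Without the block, they set a difference against the spread between libraries of a group. Values are per-million units, and n counts clones.

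Type I interferons bind the receptor pair IFNAR1 and IFNAR2, and type III interferons bind IFNLR1 with IL10RB. Both activate the kinases JAK1 and TYK2. The signal ends in the factor ISGF3, which holds IRF9 and binds the interferon-stimulated response element (ISRE) in promoters. Type II interferon acts mainly through another promoter element, GAS. Hepatocytes respond to interferon with strong induction of these genes, which limits hepatitis viruses. Many of the genes also have a basal level without added interferon. In tissue or cell pools, fewer cells with a transcript and less transcript per cell cannot be told apart.

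The promoters show what the members share in sequence. RefSeq promoter sequences (GRCh38.p14) were matched for 7 of the 8 members; IFITM2 was not matched. The 250 bases upstream of each start were searched on both strands for the ISRE core GAAANNGAAA (on the other strand TTTCNNTTTC) and for the GAS core TTCNNNGAA, which reads the same on both strands. Of the 7 matched members, 6 held the ISRE letters and 3 the GAS letters. Of all 27305 genes with a promoter window, 3.71% held the ISRE letters and 8.09% the GAS letters in at least 1 window. The stretches with matches follow, 5′ to 3′ on the gene's strand, with the fixed letters of a match in capitals. They are shown because every member but IRF9 with a matched promoter carries the ISRE core, whichever way its transcript moved.
IFI27: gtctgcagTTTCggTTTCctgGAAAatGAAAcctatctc
IFI6: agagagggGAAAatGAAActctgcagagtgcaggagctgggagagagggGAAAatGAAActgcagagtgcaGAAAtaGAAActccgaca
IFIT1: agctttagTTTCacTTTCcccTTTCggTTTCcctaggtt
IFITM1: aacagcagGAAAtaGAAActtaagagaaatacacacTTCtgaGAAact
IFITM3: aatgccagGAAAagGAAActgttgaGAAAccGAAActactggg
ISG15: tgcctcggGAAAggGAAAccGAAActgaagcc
IRF9: cacgtgatTTCtggGAAaaggccct

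The stretch of IFI27 lies at chr14:94110620-94110658 on the plus strand and holds 2 ISRE matches in opposite orientations, the upstream one on the other strand. A GAS match between them overlaps both. That of IFI6 lies at chr1:27672268-27672356 on the minus strand and holds 3 ISRE matches. Those of IFIT1 (chr10:89392499-89392537, plus), IFITM3 (chr11:320878-320920, minus) and ISG15 (chr1:1013376-1013407, plus) hold 2 ISRE matches each, which overlap in ISG15. IFITM1 (chr11:313992-314039, plus) has 1 ISRE and 1 GAS match. IRF9 (chr14:24161194-24161218, plus) has a GAS match only. A match describes letters and shows no binding.

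Depth ran from 9314342 to 15777669 reads per library, with 15662 to 16206 genes detected. The 10 listed hepatocyte markers were all present, with a summed level of 21420.5 to 51942 units in controls and 15342 to 39525 units under palmitic acid. In limma with clone block 7 of the 10 fell, against 9.52% of all tested genes. APOB (adjusted p = 0.243), TTR (0.189) and SERPINA1 (0.0753) had downward estimates that did not pass. Of 8 leukocyte markers, PTPRC, CD3E, NKG7 and MS4A1 were not among the table's genes. CSF1R was at 0.634 units or less, CD14 fell, and the sum over the listed leukocyte markers was 392 to 914 units in controls and 399 to 1060.5 under palmitic acid, nearly all of it LYZ. Endothelial markers (3 of 5 in the table) summed to 10.4 to 31.1 units in controls and 9.44 to 33.6 treated, and stellate and fibroblast markers (3 of 6) to 37.8 to 117 and 32.9 to 93.1. Among these, PDGFRB rose (1.12 ± 0.30 on the log2 scale, adjusted p = 0.0251, limma with clone block), and ACTA2 (-0.56 ± 0.12, 0.00801) and PECAM1 (-0.59 ± 0.12, 0.00621) fell. LYVE1, the other tested endothelial marker, had an upward estimate that did not pass (0.64 ± 0.23, 0.0764). The part of these markers in the changes below was not tested.

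Under palmitic acid the members split: the 3 IFITM genes rose, IFIT1 and IFI6 fell, and IFI27, ISG15 and IRF9 passed no test. In limma with the clone as block, which compares each clone with itself, 5 of the 8 members were called, 3 up and 2 down, against 18.9% of all tested genes (9.33% up and 9.52% down). The members were chosen with earlier results of these data known, so this count describes them and is no test of the set. The median log2 change was 0.10 over the 8 members and -0.01 over all tested genes. Without the block limma called 0 of the 8 (4 at an unadjusted p under 0.05), against 0.0458% of all genes. On the recovered reads, also without the block, edgeR called 0 members (0.0153% of all genes) and DESeq2 0 (0.825%). The estimated log2 changes are equal in both limma fits. IFITM1 and IFITM2 were higher in all 8 clones, as were 6.77% of tested genes, and IFIT1 was lower in all 8, as were 6.79%. Within single genotypes limma with block called 2 members in GG (0.84% of all genes), 2 in GC (1.54%) and 1 in CC (2.3%). These counts rest on single clones: that in GG was 0 without GG clone 1 or 6 and 1 without GG clone 2 or any 1 GC clone, that in GC was 0 without GC clone 3 or 4, 1 without GG clone 1 or 6 and 4 without CC clone 1 or 3, and that in CC 0 without CC clone 3 or GC clone 4 and 2 without GC clone 2. The share of all tested genes called without each clone is not given here, so these shifts cannot be read as particular to the members. Without the block limma called 0 in each genotype, with none of the 8 at an unadjusted p of 0.05 or less. There edgeR and DESeq2 called 0 too, against at most 0.0153% of all genes.

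**Figure D1:**
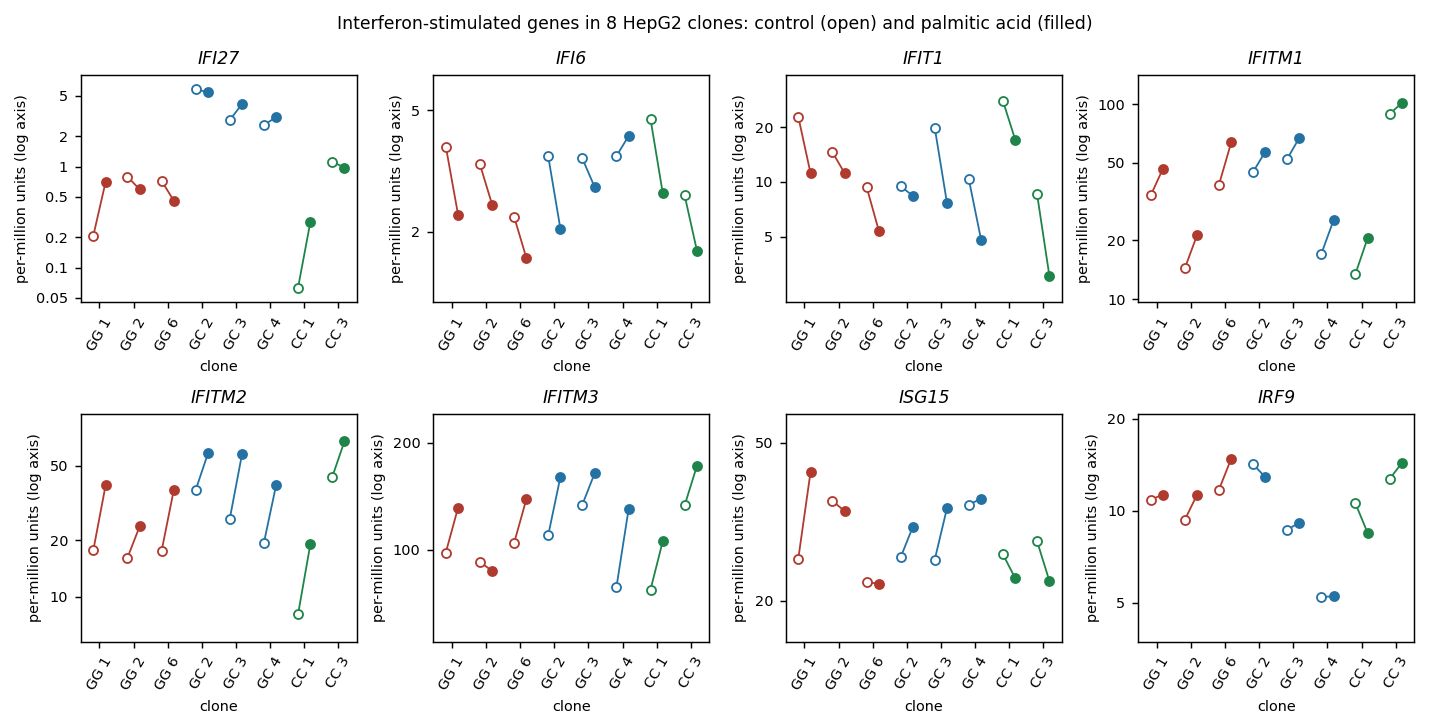
Level of each member in per-million units (log axis) for the 8 clones, control as open and palmitic acid as filled points joined by a line, red GG, blue GC and green CC. IFITM1 and IFITM2 go up and IFIT1 goes down in every clone, and IFI27 is highest in the 3 GC clones.

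The IFITM genes encode small membrane proteins that block the entry of many viruses at the endosome or cell surface. Their genes lie side by side (GRCh38 chromosome 11): IFITM2 at 307631 to 315272 and IFITM1 at 313506 to 315272 on the plus strand, and IFITM3 at 319669 to 327537 on the minus strand. The annotated spans of IFITM1 and IFITM2 overlap on the same strand and the 3 transcripts are alike in sequence, so reads may be split between them with error. The annotated genes AC136475.7 and AC136475.8 overlap IFITM3 on its strand.

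IFITM2, which acts mainly in late endosomes, showed the largest rise of the 8 members. In GG clones 1, 2 and 6 it was at 17.8, 16.2 and 17.6 units in control and at 39.4, 23.8 and 37.3 under palmitic acid. GC clones 2, 3 and 4 had 37.1, 26.1 and 19.5 units in control and 58.1, 57.9 and 39.6 treated, and CC clones 1 and 3 had 8.10 and 43.4, then 19.1 and 67.4. Control and treated libraries did not overlap in GG (5.46% of all tested genes) or GC (11.6%), while the 2 CC clones lay so far apart that the treated clone 1 stayed below the control clone 3. The log2 change was 0.91 ± 0.09 (SE over 8 clones; adjusted p = 1.70e-04 in limma with block), a 1.89-fold rise, upward in 8 of 8 clones. Within each genotype the rise was of like size, at 0.91 ± 0.15 in GG (limma with block, adjusted p = 0.0245), 0.93 ± 0.15 in GC (0.0150) and 0.91 ± 0.18 in CC (0.0308).

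IFITM1, which sits mostly at the plasma membrane, rose in every clone from very unequal levels. GG controls had 34.0, 14.4 and 38.6 units and the same clones treated 46.7, 21.3 and 63.7. GC controls had 44.9, 52.4 and 17.1 against 57.1, 67.3 and 25.4 treated, and CC controls 13.5 and 89.0 against 20.6 and 101. Clones GG 2, GC 4 and CC 1 were low and CC 3 high in both treatments, and control and treated groups overlapped in all 3 genotypes. The log2 change was 0.46 ± 0.06 (adjusted p = 0.00113, limma with block), upward in 8 of 8 clones. Within GG it was 0.57 ± 0.10 (adjusted p = 0.0327, limma with block), while in GC (0.42 ± 0.10, 0.0676) and CC (0.39 ± 0.13, 0.121) it did not pass.

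IFITM3, the family member best known for restricting influenza virus, rose less on the log2 scale. Its levels were 98.3, 92.6 and 104 units in GG controls against 131, 87.2 and 139 treated. In GC they were 109.8, 134 and 78.5 against 160.5, 164 and 131, and in CC 77.4 and 133 against 106 and 172. GG clone 2 was the only clone in which IFITM3 was lower under palmitic acid. The log2 change was 0.39 ± 0.07 (adjusted p = 0.00363, limma with block), upward in 7 of 8 clones, and 0.52 ± 0.11 within GC (adjusted p = 0.0459). In GG it was 0.25 ± 0.11 (0.313) and in CC 0.41 ± 0.14 (0.130).

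**Figure D2:**
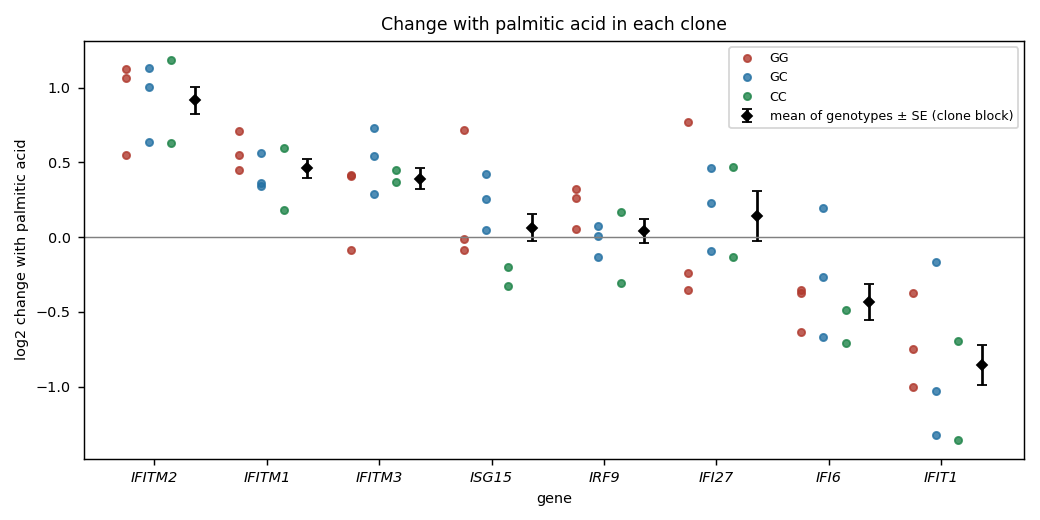
Change in log2(units + 0.5) with palmitic acid in each clone (coloured points) and the mean of the 3 genotypes with its SE from the clone-block fit (black diamonds), by gene. All 8 points of IFITM1 and IFITM2 lie above 0 and all 8 of IFIT1 below it.

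IFIT1 fell in all 8 clones. It encodes a cytosolic protein that binds viral RNA lacking the methylation of host caps, and it is among the most strongly interferon-induced genes in many cells (chromosome 10, 89392546 to 89406486, plus strand). LIPA overlaps it on the other strand. The library kit keeps strand, but whether reads of LIPA entered the values was not tested. IFIT1 in GG clones was at 22.8, 14.6 and 9.41 units in control and 11.1, 11.1 and 5.39 treated. GC clones had 9.45, 19.8 and 10.3, then 8.37, 7.63 and 4.78, and CC clones 27.8 and 8.54, then 17.0 and 3.04. Treated and control GC libraries did not overlap, as for 11.6% of all tested genes, and in GG and CC they did. The log2 change was -0.86 ± 0.13 (adjusted p = 0.00197, limma with block). Within single genotypes it did not pass, at -0.71 ± 0.21 in GG (adjusted p = 0.153, limma with block), -0.84 ± 0.21 in GC (0.0767) and -1.02 ± 0.26 in CC (0.0661).

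IFI6, a small mitochondrial and endoplasmic reticulum protein that limits cell death and flavivirus replication, was low throughout, with 16 to 74 reads per library (chromosome 1, 27666061 to 27672218, minus strand). GG controls were at 3.81, 3.33 and 2.24 units and treated GG clones at 2.27, 2.45 and 1.64. For GC these values were 3.54, 3.48 and 3.54 against 2.04, 2.81 and 4.13, and for CC 4.68 and 2.63 against 2.67 and 1.74. Only GC clone 4 was higher under palmitic acid. The log2 change was -0.43 ± 0.12 (adjusted p = 0.0311, limma with block), downward in 7 of 8 clones. This call was lost without any 1 of GG clone 1 (adjusted p = 0.0846), GG clone 2 (0.0519), GC clone 2 (0.0765), GC clone 3 (0.0760), CC clone 1 (0.0663) or CC clone 3 (0.0684).

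ISG15 and IRF9 gave no call in either fit. ISG15 encodes a ubiquitin-like modifier that is conjugated to host and viral proteins (chromosome 1, 1001138 to 1014540, plus strand). It was at 25.5, 35.7 and 22.3 units in GG controls and 42.3, 33.6 and 22.1 under palmitic acid, so that GG clone 1 alone moved far. GC controls were at 25.7, 25.4 and 34.9 against 30.8, 34.3 and 36.2 treated, and CC controls at 26.2 and 28.2 against 22.8 and 22.5. All 3 GC clones were higher and both CC clones lower (CC groups did not overlap, as for 23.4% of all tested genes), but the difference between these 2 changes, 0.50 ± 0.23 on the log2 scale, gave an adjusted p = 0.911 in limma with block (0.0493 unadjusted). Over genotypes the log2 change was 0.06 ± 0.09 (adjusted p = 0.661), and -0.022 without GG clone 1.

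IRF9 encodes the DNA-binding subunit of ISGF3 (chromosome 14, 24161053 to 24166565, plus strand). The annotated gene AL136295.5 overlaps it on the same strand, so reads may be split between them with error. Levels of IRF9 were 10.9, 9.35 and 11.7 units in GG controls and 11.3, 11.3 and 14.8 treated, 14.2, 8.67 and 5.23 against 12.9, 9.15 and 5.25 in GC, and 10.6 and 12.7 against 8.44 and 14.3 in CC. GC clone 4 was the lowest clone in both treatments. The log2 change over genotypes was 0.04 ± 0.08 (adjusted p = 0.759, limma with block), and -0.038 without CC clone 3.

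IFI27 was higher in the GC clones than in the others in both treatments, a pattern known when the gene was chosen and given here as a description with no test. It encodes a small mitochondrial protein of the same family as IFI6 (chromosome 14, 94104836 to 94116698, plus strand) and is widely used as a marker of interferon exposure in blood and liver. In GC clones 2, 3 and 4 it had 69, 44 and 32 reads in control and 80, 52 and 33 under palmitic acid, which is 5.82, 2.89 and 2.58 units and 5.44, 4.17 and 3.10 units. In GG clones it had 3, 10 and 10 reads in control and 9, 8 and 5 treated (0.208, 0.792 and 0.724 units, then 0.706, 0.594 and 0.457). In CC clones 1 and 3 it had 1 and 14 reads in control and 4 and 9 treated (0.0633 and 1.12 units, then 0.281 and 0.976).

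Every GC library was thus above every GG and CC library, and GG and CC overlapped. Counting error alone gives wide limits at such depth: the exact Poisson 95% interval ran from 4.53 to 7.37 units for control GC clone 2 and from 0.00160 to 0.352 units for control CC clone 1. Of all tested genes, 56 or 0.428% had all 6 GC libraries above the other 10, and 70 or 0.535% had them all below. The mean level of IFI27, 1.87 units, passed the filter of 1 unit only through the GC libraries.

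The group means of IFI27 were 3.76 ± 1.79 units in GC controls (SD, n = 3), 0.574 ± 0.320 in GG (SD, n = 3) and 0.590 ± 0.745 in CC (SD, n = 2). Under palmitic acid they were 4.24 ± 1.18, 0.586 ± 0.125 and 0.629 ± 0.491 units. The log2 difference of GG from GC was -1.96 in control and -2.10 under palmitic acid. That of GC from CC was 2.08 in control, 1.32 without control CC clone 1, and 2.11 under palmitic acid. The size depends on the pseudocount: in control the difference of GG from GC was -2.57 with 0.1 and -1.13 with 2, and that of GC from CC 3.02 and 1.14. Under palmitic acid these were -2.64 and -1.25, and 2.72 and 1.24. Over genotypes its log2 change with palmitic acid was 0.14 ± 0.17 (adjusted p = 0.578, limma with block), with 4 clones up and 4 down.

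IFI27, chosen for its genotype pattern, is left out of the counts of called members in the comparisons of level. Between genotypes limma called 0 of the other members in any of the 6 comparisons of level, against 0 to 0.00764% of all genes. On the recovered reads edgeR called 0 members (0% of all genes) and DESeq2 0, against 0.153% for GG and GC in control, 0.0153% for GC and CC in control, 0.16% for each of these pairs under palmitic acid, and 0.00764% or less between GG and CC. Of the members other than IFI27, only ISG15 was at an unadjusted p under 0.05, for GC against CC under palmitic acid. Apart from IFI27, groups did not overlap for IFITM2 between GC and GG in both treatments (12.3% of all tested genes in control and 11.9% under palmitic acid) and for ISG15 between GC and CC under palmitic acid (25.5%). GC was the higher group in both. For the difference in palmitic acid change between genotypes, limma with block called 0 of the 8 members in each of the 3 comparisons (0 to 0.00764% of all genes), and, with GC against CC, only ISG15 was at an unadjusted p under 0.05.

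Each gene's sum of squares over the 16 libraries was split by source. The medians over all tested genes were 16.8% between genotypes, 56.8% between clones within a genotype and 4.29% between treatments. For IFI27, chosen for its genotype pattern, the shares were 83.7%, 12.9% and 0.410%, and they describe that choice. IFITM1 had 89.7% between clones and 2.42% between genotypes. Palmitic acid held 33.7% for IFITM2, 32.3% for IFI6, 30.1% for IFITM3 and 29.4% for IFIT1. IRF9 had 74.0% between clones and 0.446% between treatments. Genotype has 2 degrees of freedom here, clone 5 and treatment 1.

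**Figure D3:**
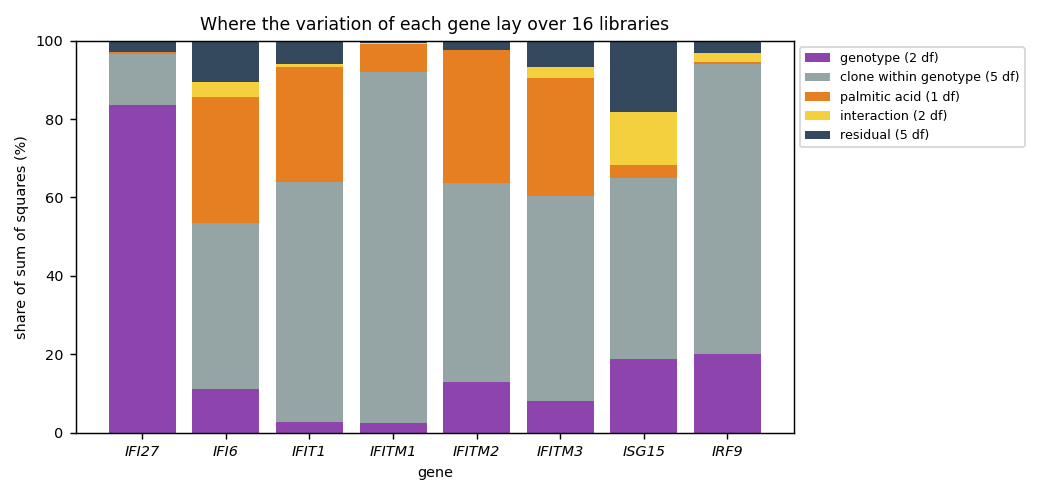
Share of the sum of squares of log2(units + 0.5) over 16 libraries, in percent, stacked for each of the 8 genes by source, with degrees of freedom (df) in the legend. Genotype fills 83.7% of the bar of IFI27, and clone within genotype 89.7% of that of IFITM1.

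IFITM2 was the member most like IFI27 in profile, and IFIT1 the least. As a description over the 16 libraries, which share clones in pairs, Pearson's r of log2 levels with IFI27 was 0.59 for IFITM2, 0.44 for IFITM3, 0.33 for IFITM1, 0.30 for ISG15, 0.06 for IFI6, -0.19 for IRF9 and -0.38 for IFIT1. Among 10260 genes ranked, the most alike were CLEC18A, a lectin gene with close copies on its chromosome (r = 0.92), the signalling adaptor STAP2 (0.88), the transcription factor NFIC (0.88), the lipid droplet coat gene PLIN4 (0.87) and the reductase PTGR1 (0.86). CLEC18A was at 8.77 to 13.9 units in GC libraries, 2.38 to 4.12 in GG and 2.72 to 5.51 in CC. In the others the ranges overlapped. The lowest GC library was at 15.1 units for STAP2 (highest GG 16.3) and 22.19 for NFIC (highest CC 22.35). For PLIN4 it was at 10.7 (highest CC 11.6) and for PTGR1 at 19.4 (highest CC 21.2). IFI27L1 and IFI27L2, which flank IFI27 on chromosome 14, were at 0.434 to 1.71 and at 0 to 0.434 units, with means under the filter, and in both of them GC overlapped GG and CC.

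**Figure D4:**
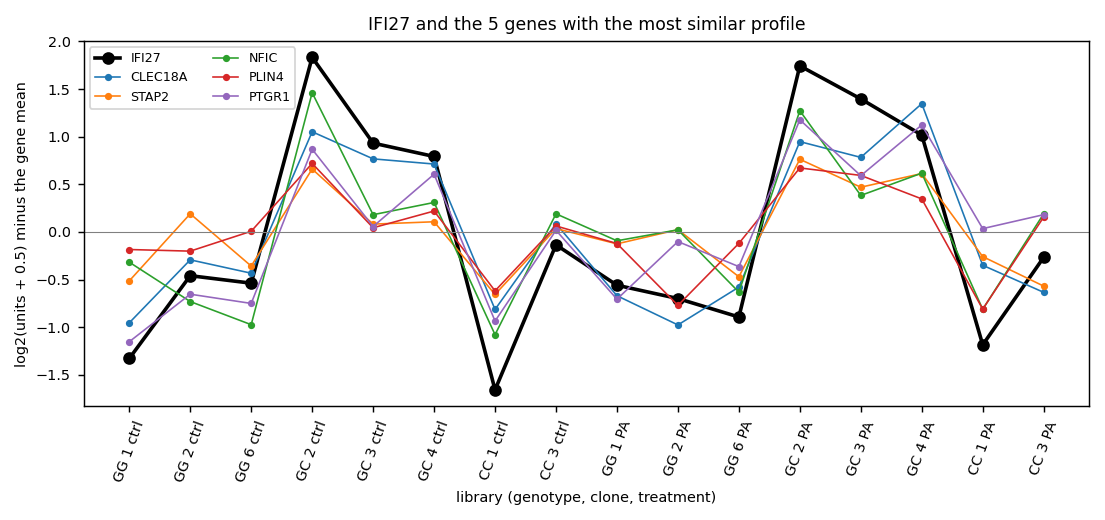
Log2(units + 0.5) of IFI27 (black) and of the 5 genes with the highest Pearson correlation to it, each minus its own mean over the 16 libraries, with the 8 controls first and the 8 treated libraries after them. The 3 GC controls and the 3 treated GC libraries form 2 raised blocks, and IFI27 has its lowest points in the control libraries of CC clone 1 and GG clone 1. In STAP2, NFIC, PLIN4 and PTGR1 the range of GC overlaps that of GG or CC.

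The wider interferon list put the members in context. Of 108 listed genes including the 8 members, 88 were in the table and 79 tested. With the clone block limma called 18, 8 up and 10 down, and 61 did not pass, where 18.9% of all tested genes were called. The median log2 change was -0.05 over the list and -0.01 over all tested genes. Without the 8 members, 5 rose and 8 fell of 71, against 9.33% up and 9.52% down over all tested genes. Without the block limma called 0 of the 79 (0.0458% of all tested genes), edgeR 0 (0.0153%) and DESeq2 1 (0.825%). The count with block was 27 without CC clone 1, 11 without CC clone 3 and 11 without GC clone 3. The share of all tested genes called in these fits is not given here, so the shifts cannot be read as particular to the list.

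Of the 9 ligand genes, from IFNA1 and IFNB1 to IFNG and the lambda interferons, 0 were among the table's genes. Of 6 receptor genes 1 rose and 0 fell, against 9.33% up and 9.52% down over all tested genes. The 1 that rose was IFNAR2 (0.40 ± 0.06 on the log2 scale, adjusted p = 0.00177, limma with block), with IFNGR1 at 0.12 ± 0.08 and IFNGR2 at 0.07 ± 0.05. The mean level of IFNAR2 was 15.9 ± 2.82 units in GG controls and 21.4 ± 3.50 treated (SD, n = 3), 18.5 ± 2.09 and 24.4 ± 1.49 for GC, and 16.6 ± 3.71 and 21.9 ± 4.01 for CC (n = 2). It was higher in 8 of 8 clones, as were 6.77% of all tested genes.

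Of 10 kinases and transcription factors 1 rose and 0 fell, against 9.33% up and 9.52% down over all tested genes. The 1 that rose was JAK1 (0.52 ± 0.07, adjusted p = 0.00101, limma with block), higher in 8 of 8 clones, as were 6.77% of all tested genes. JAK1 averaged 112 ± 11.2 units in GG controls and 162 ± 29.8 treated, 99.4 ± 19.1 and 134 ± 25.4 for GC, and 119.5 ± 16.9 and 188 ± 62.3 for CC. TYK2, its partner kinase at the receptor, was at -0.13 ± 0.07 (adjusted p = 0.205, limma with block).

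Sensors and adaptors detect foreign nucleic acid and switch on interferon genes. Of 9 tested, 1 rose and 1 fell, against 9.33% up and 9.52% down over all tested genes. TBK1, the kinase that activates IRF3, rose (0.22 ± 0.06, adjusted p = 0.0254, limma with block) and the RNA sensor IFIH1 fell (-0.46 ± 0.09, 0.00638). MAVS, the mitochondrial adaptor, was at -0.11 ± 0.05 (0.135), and TRIM25, which ubiquitinates the sensor RIG-I, at 0.10 ± 0.06 (0.277). Of 4 inhibitors 0 were called, with the protease USP18, which removes ISG15 from proteins, at -0.18 ± 0.07 (0.108) and PIAS1, a SUMO ligase, at -0.15 ± 0.06 (0.0754).

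Of 37 tested antiviral effectors, the members among them, 5 rose and 6 fell, against 9.33% and 9.52% of all tested genes. Beside the members, EPSTI1 (0.42 ± 0.12, adjusted p = 0.0347, limma with block) and the nuclear body protein SP100 (0.41 ± 0.08, 0.00532) rose. Those that fell were UBA7, the enzyme that activates ISG15 for conjugation (-0.59 ± 0.14, adjusted p = 0.0167, limma with block), the exonuclease ISG20 (-0.39 ± 0.11, 0.0265), the dynamin-like MX1 (-0.37 ± 0.12, 0.0486) and PARP9 (-0.31 ± 0.08, 0.0166). UBA7 and MX1 were lower in 8 of 8 clones, as were 6.79% of all tested genes, but by unequal amounts. The log2 change of UBA7 ran from -1.85 in CC clone 3 to -0.007 in GG clone 1. That of MX1 ran from -1.10 in CC clone 3 to -0.036 in GC clone 4. EPSTI1 was higher in 8 of 8 clones, as were 6.77% of all tested genes. The abundant LGALS3BP (0.08 ± 0.05, 0.348) and the RNA editor ADAR (-0.06 ± 0.05, 0.386) did not pass.

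Interferon induces many antigen presentation genes. Of 13 tested, 0 rose and 3 fell, against 9.33% up and 9.52% down over all tested genes. Those called were HLA-B (-0.33 ± 0.06, adjusted p = 0.00553, limma with block) and HLA-C (-0.26 ± 0.06, 0.00997), both heavy chains of class I molecules, in 8 of 8 clones, and the immunoproteasome subunit PSMB8 (-0.21 ± 0.06, 0.0459). Of all tested genes, 6.79% were lower in 8 of 8 clones. CC clone 3 fell most in HLA-B, HLA-C and PSMB8 (log2 change -0.68, -0.64 and -0.58), against medians over the 8 clones of -0.28, -0.18 and -0.15. The peptide loading factor TAPBP was at -0.05 ± 0.05 (0.510). HLA genes are alike in sequence, and their reads may be split with error.

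**Figure D5:**
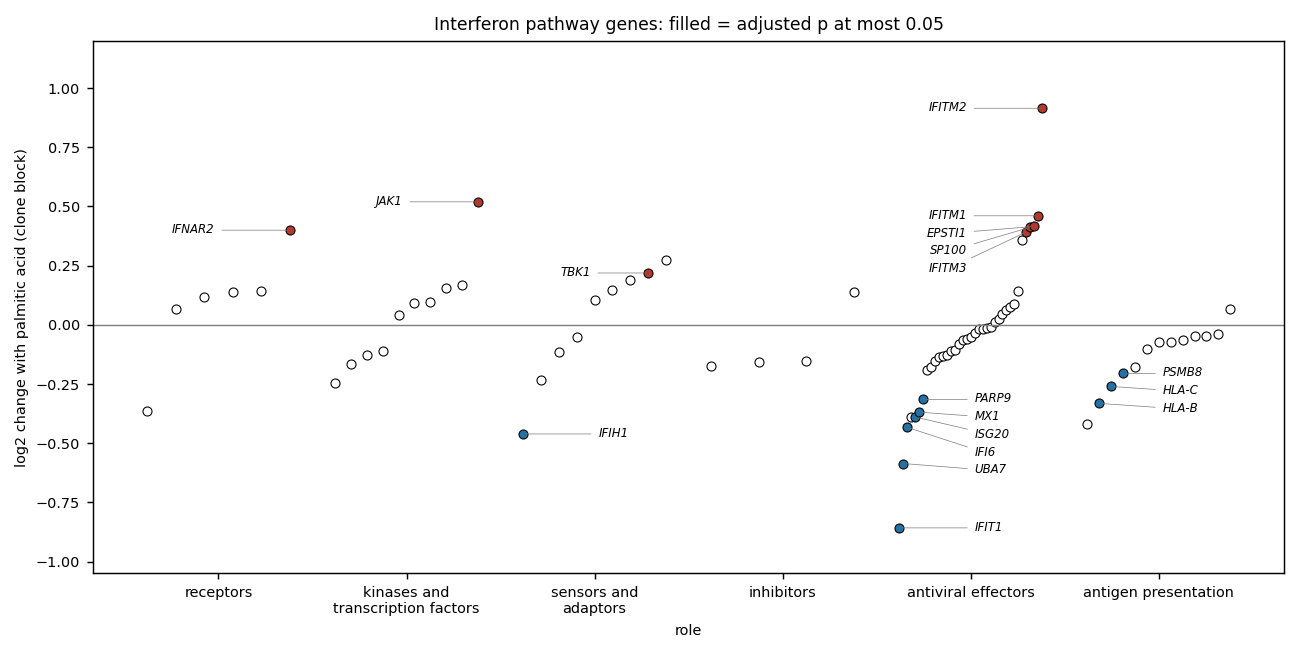
Log2 change with palmitic acid from the clone-block fit for each of the 79 tested genes of the interferon list, by role, with filled and named points past an adjusted p of 0.05 (red up, blue down) and open points not. IFITM2 has the highest and IFIT1 the lowest value, and in antigen presentation the filled points all lie below 0.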

How the data were processed

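Total RNA of 16 libraries from edited HepG2 lines was ribosome-depleted and made into directional libraries, per the labels' protocols. Trimming with Trimmomatic 0.38 and the tools edgeR, Bowtie2 and RSEM 1.3.0 are listed, per the submitters' processing notes, with hg38 as build. No annotation is given in the sources used here. The authors deposited 1 table of a normalized signal for 16558 genes. Whole reads could be recovered for 100% of values (tolerance 0.01 reads), giving 9314342 to 15777669 reads per library. Library factors recomputed from these reads equalled those in the table to within 1e-10, so that a unit is a per-million read with edgeR's scaling (trimmed mean of M-values).

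From these values log2(value + 0.5) was analysed for 13095 genes, those averaging 1 unit or more over all libraries, in 13 comparisons of 6 groups. The test was limma 3.58.1 with a mean-variance trend (R 4.3.3), two-sided, with Benjamini-Hochberg adjustment over all tested genes and a threshold of 0.05. Without a clone term 10 residual degrees of freedom were left, and with the clone as replicate block 5. All groups share 1 estimate of the spread, so an SE or p within CC, with 2 clones, also rests on GG and GC clones. Genotypes weigh equally in a change over genotypes, so each of the 2 CC clones counts for more than a GG or GC clone. The comparisons of level between genotypes used the fit without a clone term. Its spread counts the control and the treated library of a clone as independent. A control and a treated library with the same number in their labels were taken to come from 1 edited line. Their deviations from the group means correlated at 0.523 to 0.857 over genes, the 2 CC clones giving the same value by construction. Among the 8 treated libraries, each control library correlated highest with its own partner. Controls were not compared with each other, nor was each treated library compared with all controls. The steps were tested on simulated data. Alternatives were other pseudocounts, no filter, plain per-million scaling, edgeR 4.0.16 and DESeq2 1.42.0 on the recovered reads, and leaving out each library or clone. On the recovered reads edgeR called 2 genes for palmitic acid over genotypes without the block and 2418 with it, against 6 and 2469 by limma.

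Named were the 8 members, every gene of a 108-gene interferon list called with the clone block, up to 2 further genes per role by level, and the 5 genes most like IFI27; 2 of the further genes are not reported here. The members and lists were chosen with earlier results of these data known. Promoter sequences are from RefSeq (GRCh38.p14) and gene positions from GENCODE 29 (GRCh38).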

Additional observations from a re-analysis of the deposited data

How the results depend on the processing

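The clone as replicate block decided the calls under palmitic acid. Over genotypes it gave 5 called members of 8 (also 5 with block by edgeR), against 0 without it, and 4 to 5 with block when 1 clone was left out. Within genotypes the block gave 2 (GG), 2 (GC) and 1 (CC), the same numbers by edgeR with block. Leaving out 1 clone gave 0 to 2 (GG), 0 to 4 (GC) and 0 to 2 (CC). Of the interferon list, 18 were called with block (18.9% of all tested genes), 17 by edgeR with block and 1 by DESeq2 without block (0.825%). With block, leaving out GG clones 1, 2 and 6 gave 14, 13 and 15, GC clones 2, 3 and 4 gave 12, 11 and 15, and CC clones 1 and 3 gave 27 and 11. For counts with a clone left out, the share of all tested genes is not given here. The block changed no other count of called members. Without the block, leaving out single libraries and changing the pseudocount, filter, scaling or tool kept every count of called members at 0. For level between genotypes this is no test of IFI27, which was chosen for its pattern. The log2 difference of IFI27 between GG and CC under palmitic acid, near 0, turned sign with a pseudocount of 2 (-0.012), plain scaling (-0.0058), edgeR (-0.041) and DESeq2 (-0.055).

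Leaving out single libraries gave log2 changes of -0.11 to 0.40 for IFI27, -0.0062 to 0.15 for ISG15 and -0.080 to 0.16 for IRF9 (with block, -0.022 for ISG15 without GG clone 1 and -0.038 for IRF9 without CC clone 3), and IFI27 differences between GG and CC of -0.64 to 0.88 in control and -0.45 to 0.47 under palmitic acid. Without the block, where leaving out 1 library breaks a pair, the log2 change ran from 0.01 to 0.91 for IFITM1 (0.30 without control GC clone 4, 0.01 and 0.91 without control CC clones 1 and 3, 0.84 and 0.08 without treated CC clones 1 and 3). It ran from 0.52 (without control CC clone 1) to 1.31 for IFITM2, and from -1.24 to -0.47 (without treated CC clone 3) for IFIT1. With the block, leaving out 1 clone gave 0.39 to 0.53, 0.82 to 1.01 and -0.97 to -0.75 for these genes. The cause was not tested. Few reads limit IFI27 (1 to 80 per library) and IFI6 (16 to 74).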
